A study of Mus musculus with 9 samples.

Results

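The genes described here are receptors for growth hormone, prolactin and estrogen, with the STAT5 factors and their targets. The 8 were chosen by name: Ghr, Prlr, Esr1, Stat5a, Stat5b, Igf1, Socs2 and Cish, of 22180 genes with a probe set. Although they were put together as androgen, growth hormone and prolactin signalling, none of the 8 encodes an androgen receptor, and they are called here by their own names. A probe set annotated to that gene alone was found for 7 of the 8, and all 7 passed the filter on dim genes. No probe set was annotated to Prlr in the table used, so the prolactin receptor was not analysed here.

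Growth hormone binds its receptor, Ghr, and prolactin binds the related receptor Prlr. Both receptors have no enzyme of their own and work through the kinase Jak2, which phosphorylates the transcription factors Stat5a and Stat5b. Phosphorylated STAT5 enters the nucleus and switches on genes that include the growth factor Igf1 and the feedback inhibitors Socs2 and Cish, which dampen the receptors. Esr1 encodes estrogen receptor alpha, a nuclear receptor that binds its steroid ligand directly. In the kidney growth hormone and IGF-1 are known to raise filtration and the reabsorption of sodium and phosphate.

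RNA from the kidney cortex of male C57BLKS/J mice aged 20 weeks was hybridized to 9 Affymetrix arrays, 3 for each of 3 groups. The db/db+TSF group was db/db mice dosed with TSF (Tang-shen Formula, a traditional Chinese medicine) into the stomach for 12 weeks, at 2.4 g/kg/day. Both copies of the leptin receptor gene are mutant in db/db mice, which are obese and diabetic. The db/db group had the same genotype and received saline. The db/m group carries 1 mutant copy of the leptin receptor gene, stays lean, and was the control, with no gavage stated for it in the labels. The labels call the arrays of a group biological replicates and give 9 mice per db/db group, but do not say which mice, or how many, were on each array.

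Values are log2(intensity + 1), called the level, and a fold change is a difference of mean levels on that scale. The median intensity of an array was 10.3 to 11.2. On the first principal component (32.3% of the variance) a gap separated the 3 db/m arrays from the other 6, and the second, 16.6%, had db/db+TSF replicate 2 and db/db replicate 3 at its ends. All 8 proximal tubule markers looked for were measured, and their summed intensity was 18009 to 18455 in db/db+TSF, 17641 to 18420 in db/db and 17444 to 18897 in db/m, with overlapping ranges. A gene passed a comparison at a Benjamini-Hochberg adjusted p of 0.05 over 17740 genes, from limma fitted to all 9 arrays.

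Esr1 was the 1 member of the 7 measured that passed a comparison, and its level was lower in diabetic cortex. It passed in db/db+TSF and in both diabetic groups averaged, and not in db/db alone. Its level was 6.30, 5.62 and 6.53 in the db/db+TSF arrays, 6.49, 6.39 and 6.15 in the db/db arrays, and 7.42, 7.13 and 7.13 in the db/m arrays. Every db/db+TSF and db/db array lay below every db/m array, while the db/db+TSF and db/db ranges overlapped. In intensity units the highest of the 6 diabetic arrays had 91.2 and the lowest db/m array 139.

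Esr1 fell by 1.08 in db/db+TSF against db/m (SE 0.20, 2.11-fold, limma adjusted p = 0.0168). With the db/db+TSF and db/db groups averaged, it fell by 0.98 against db/m (SE 0.17, 1.98-fold, adjusted p = 0.0131; lower in 6 of 6 arrays). The exact two-sided permutation test of the 6 diabetic arrays against the 3 db/m arrays gave p = 0.0238, the smallest it can give. In db/db alone against db/m the difference was -0.88 (SE 0.20, 95% interval -1.33 to -0.44) and did not pass, with an adjusted p of 0.0657. The difference was the same, and passed, with only the db/db and db/m arrays fitted (adjusted p = 0.0203). It was also the same, and passed, with all arrays but db/db+TSF replicate 2 (adjusted p = 0.0103). Of 22 alternatives for db/db against db/m, 19 did not pass and 3 did. With 1 array left out, the adjusted p of that comparison reached 0.185. Without db/m replicate 1, the highest array, the falls were 0.98 in db/db+TSF and 0.88 over both diabetic groups and neither passed (adjusted p = 0.0706 and 0.0708).

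Over all genes the same tests called the following shares. In db/db+TSF against db/m 1 of 7 members passed, and 3.13% of all 17740 genes did. With both diabetic groups against db/m it was 1 of 7 members and 2.94% of all genes. In db/db against db/m 0 of 7 members passed, against 1.05% of all genes. For db/db+TSF over db/db 0 of 7 members passed and 0% of all genes did. An unadjusted limma p under 0.05 was given to 2 members in db/db against db/m (Esr1 and Stat5a; 13.9% of all genes), to Igf1 in db/db+TSF over db/db (11.7%), and to Esr1 in db/db+TSF (17.2%) and both diabetic groups (16.5%) against db/m. The arrays of the groups did not overlap for 1 of 7 members, Esr1, in db/db+TSF against db/m (22.1% of all genes) and over both diabetic groups (8.55%). The db/db and db/db+TSF comparisons share the same db/m arrays.

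**Figure D1:**
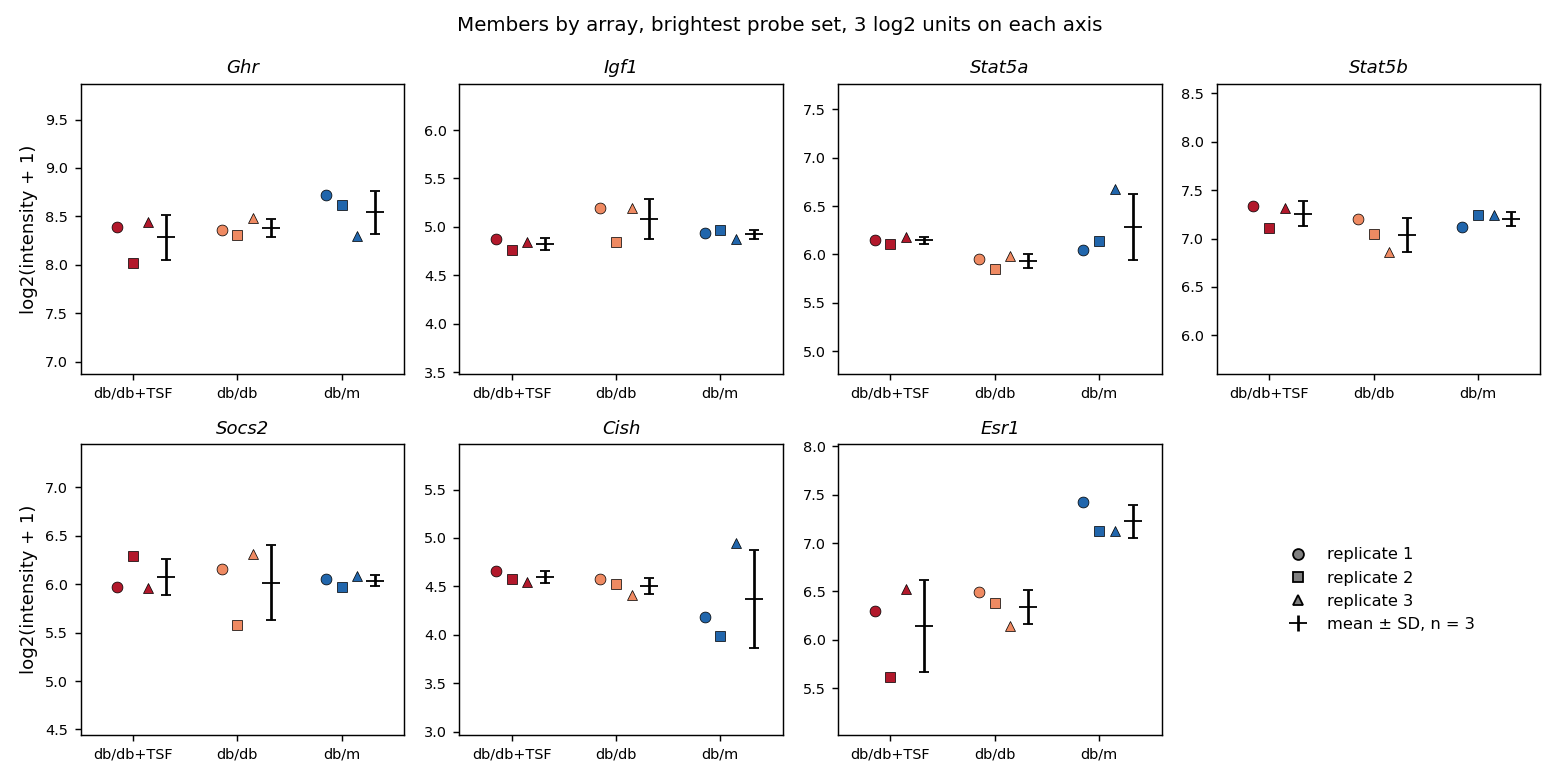
Level, log2(intensity + 1), of the 7 measured members in each array, in db/db+TSF, db/db and db/m from left to right. Symbols mark the replicate number, black bars give mean ± SD of 3 arrays, and each vertical axis spans 3 log2 units around its gene. Esr1 is the panel in which all 6 diabetic arrays (5.62 to 6.53) lie below all 3 db/m arrays (7.13 to 7.42).

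Between formula and saline no difference of Esr1 passed, within wide bounds. The mean was 6.15 ± 0.47 in db/db+TSF and 6.34 ± 0.18 in db/db (SD, n = 3 each), a difference of -0.19 with a 95% interval of -0.64 to 0.25 (adjusted p = 0.734). Replicate 2 of db/db+TSF was the lowest array of the study for this gene, and without it the difference was 0.07. The arrays measure bulk tissue, where fewer cells of a type and less RNA per cell cannot be told apart.

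Some markers of other cell types also passed where Esr1 did. Of 5 macrophage markers, 3 fell over both diabetic groups against db/m (Csf1r, Adgre1 and Cd68), and the summed intensity of the list was 248 to 313 in db/db+TSF, 302 to 320 in db/db and 364 to 424 in db/m. With 1 array left out 0 to 2 of those 3 calls were kept: Csf1r and Adgre1 each passed in 2 of 9 such fits and Cd68 in 0, with adjusted p of up to 0.146, 0.179 and 0.12. Of 4 lymphocyte markers tested, 2 fell, Cd3e and Cd3g, with sums of 41.0 to 51.1 in db/db+TSF, 43.0 to 46.9 in db/db and 62.8 to 75.6 in db/m. Neither passed without db/m replicate 1 (adjusted p = 0.0512 and 0.0735), and Cd3g did not without db/m replicate 2. Of 6 loop of Henle and distal tubule markers 2 rose, Calb1 and Pvalb, with sums of 8757 to 9889 in db/db+TSF, 8788 to 9961 in db/db and 7349 to 7734 in db/m. Calb1 passed in 9 of 9 fits with 1 array left out and Pvalb in 3, with an adjusted p of up to 0.104 without db/m replicate 1. Of 5 stromal and pericyte markers 1 rose, Rgs5, with sums of 1152 to 1222 in db/db+TSF, 1302 to 1376 in db/db and 1049 to 1285 in db/m, and the db/db+TSF sums lay inside the db/m range. No tested gene of the proximal tubule, collecting duct, podocyte, endothelial, neutrophil, adipocyte or hepatocyte lists passed in that comparison. The podocyte sums, at 784 to 835 in db/db+TSF, 722 to 765 in db/db and 611 to 711 in db/m, did not overlap between the diabetic groups and db/m. The neutrophil sum was 452 in 1 db/db array and at most 41.1 in the other 8. All deposited intensities were above 1, so no listed marker could have an intensity of 0. That does not show that each marker was detected. The part of these cell types in the Esr1 difference was not tested.

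The growth hormone receptor, Ghr, did not pass in any comparison. Its level was 8.39, 8.02 and 8.45 in db/db+TSF, 8.36, 8.31 and 8.48 in db/db, and 8.72, 8.61 and 8.30 in db/m. Replicates 1 and 2 of db/m were the highest arrays, and db/m replicate 3 lay among the diabetic arrays, so the groups overlapped. The difference was -0.26 in db/db+TSF against db/m (95% interval -0.56 to 0.05, adjusted p = 0.381) and -0.16 in db/db against db/m (-0.47 to 0.14, adjusted p = 0.649). Those intervals include differences of either sign.

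Igf1, the growth factor that growth hormone induces strongly in liver, did not pass in any comparison. It had 4.88, 4.76 and 4.84 in db/db+TSF, 5.20, 4.84 and 5.20 in db/db, and 4.94, 4.97 and 4.87 in db/m. Replicates 1 and 3 of db/db stood above all other arrays, while db/db replicate 2 had the level of the db/db+TSF arrays. Igf1 differed by -0.25 in db/db+TSF against db/db (SE 0.11, 95% interval -0.49 to -0.02, adjusted p = 0.405) and by 0.16 in db/db against db/m (adjusted p = 0.561). The unadjusted limma p of 0.0387 for the formula comparison stands beside 11.7% of all genes with an unadjusted p under 0.05 there.

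Stat5a and Stat5b are neighbouring genes on chromosome 11 (GRCm38.p6, chr11:100859351-100885169 and chr11:100780731-100859004) whose proteins are near-identical and partly interchangeable. Each had a probe set of its own, and whether the probes tell the transcripts apart was not checked here. Stat5a had 6.15, 6.11 and 6.18 in db/db+TSF, 5.96, 5.85 and 5.99 in db/db, and 6.04, 6.14 and 6.68 in db/m. The db/db arrays were the lowest 3 of the 9 and overlapped neither other group.

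The Stat5a difference was -0.36 in db/db against db/m (95% interval -0.67 to -0.04, adjusted p = 0.3) and 0.22 for db/db+TSF over db/db (-0.10 to 0.53, adjusted p = 0.58), so neither passed. Groups that do not overlap were seen in 18.6% of all genes in the db/db comparison and in 20.1% in the formula comparison, and the exact permutation p of 0.1 is the smallest that 3 arrays against 3 can give. Without db/m replicate 3, which had the highest Stat5a level, the db/db difference was -0.16. The db/db arrays serve in both of those comparisons, on opposite sides.

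Stat5b had 7.34, 7.11 and 7.32 in db/db+TSF, 7.21, 7.05 and 6.86 in db/db, and 7.12, 7.24 and 7.24 in db/m. The ranges of the 3 groups overlapped. Its difference was 0.22 in db/db+TSF against db/db (95% interval -0.02 to 0.46, adjusted p = 0.459) and -0.16 in db/db against db/m (-0.41 to 0.08, adjusted p = 0.549). Arrays measure the RNA of these factors and not their phosphorylation, on which STAT5 activity depends.

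The feedback inhibitors are the genes most often read as a sign of STAT5 activity. Socs2, which limits body growth by restraining growth hormone signalling in mice, had 5.98, 6.29 and 5.96 in db/db+TSF, 6.16, 5.58 and 6.31 in db/db, and 6.05, 5.97 and 6.09 in db/m. The 3 groups overlapped fully, and the db/db arrays spanned both the lowest and the highest level of the 9. Its differences were 0.06 in db/db+TSF against db/db (95% interval -0.31 to 0.43, adjusted p = 0.923) and -0.02 in db/db against db/m (-0.39 to 0.35, adjusted p = 0.967). A second, dimmer Socs2 probe set, at 3.83 to 4.04 in all arrays, differed by 0.03 and -0.02 in the same comparisons.

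Cish, the founding member of the SOCS family, is shown with its promoter because its start site carries a pair of STAT5 motifs. The stretch runs from 100 bases before the RefSeq start site to base 30 after it (GRCm38.p6, chr9:107296559-107296688, plus strand), with letters matching TTCNNNGAA in capitals.
Cish: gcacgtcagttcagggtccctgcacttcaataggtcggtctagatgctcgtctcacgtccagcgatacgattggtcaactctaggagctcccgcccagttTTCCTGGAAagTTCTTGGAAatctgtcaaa

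The matches begin at bases 1 and 12 after the start. At least 2 such matches were held by 0.457% of 32851 RefSeq promoter windows of 300 bases (250 before and 50 after a start), and at least 1 by 8.3%. Promoter windows were listed for 7 of the 8 genes, 13 windows in all, and 3 of them held the motif: Cish, a second start of Esr1 and a second start of Prlr. The motif reads the same on both strands. The consensus palindromic estrogen response element, searched on both strands, was in 0 of the 13 windows and in 0.07% of all windows. Binding was not measured, so a match is a description of the letters.

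The Esr1 window with a match, at a start inside the gene (GRCm38.p6, chr10:4709908-4710157, plus strand, the 250 bases before that start), is shown because Esr1 was the member that passed. Its match in capitals begins 188 bases before the start.
Esr1: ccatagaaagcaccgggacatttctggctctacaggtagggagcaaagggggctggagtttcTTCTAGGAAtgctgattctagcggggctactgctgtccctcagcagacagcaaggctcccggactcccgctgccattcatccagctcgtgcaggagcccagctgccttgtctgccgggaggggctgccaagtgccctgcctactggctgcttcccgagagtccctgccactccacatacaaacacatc
The whole Esr1 gene spans chr10:4611989-5005633, and the other Esr1 window, at the gene's first start, held no match. The deposited values give 1 level per probe set and do not separate transcripts from the different starts.

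The SD of Cish was 0.06 in db/db+TSF, 0.08 in db/db and 0.51 in db/m. It had 4.66, 4.57 and 4.54 in db/db+TSF, 4.58, 4.52 and 4.41 in db/db, and 4.18, 3.99 and 4.95 in db/m. The 6 diabetic arrays lay close together, above db/m replicates 1 and 2 and below db/m replicate 3. Cish did not pass in any comparison, with a difference of 0.22 in db/db+TSF against db/m (95% interval -0.21 to 0.65, adjusted p = 0.619) and 0.13 in db/db against db/m (-0.30 to 0.56, adjusted p = 0.804).

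Leaving out 1 array changed that result, and the difference depended on which array was left out. Over the fits with 1 array left out, the Cish difference ran from -0.02 to 0.46 over both diabetic groups against db/m. It ran from -0.06 to 0.42 in db/db and from 0.03 to 0.51 in db/db+TSF, each against db/m. Without db/m replicate 3, Cish was higher by 0.51 in db/db+TSF against db/m (SE 0.10, adjusted p = 0.0334) and by 0.46 over both diabetic groups (SE 0.09, adjusted p = 0.0342), which passed, and by 0.42 in db/db, which did not (adjusted p = 0.0964). The dimmer Cish probe set had 4.28, 4.17 and 4.24 in db/db+TSF, 4.07, 4.10 and 4.33 in db/db, and 3.88, 3.70 and 4.23 in db/m, again with db/m replicate 3 the highest of its group. Its difference over both diabetic groups was 0.26 with all arrays (adjusted p = 0.296). Stat5a was also highest in db/m replicate 3.

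**Figure D2:**
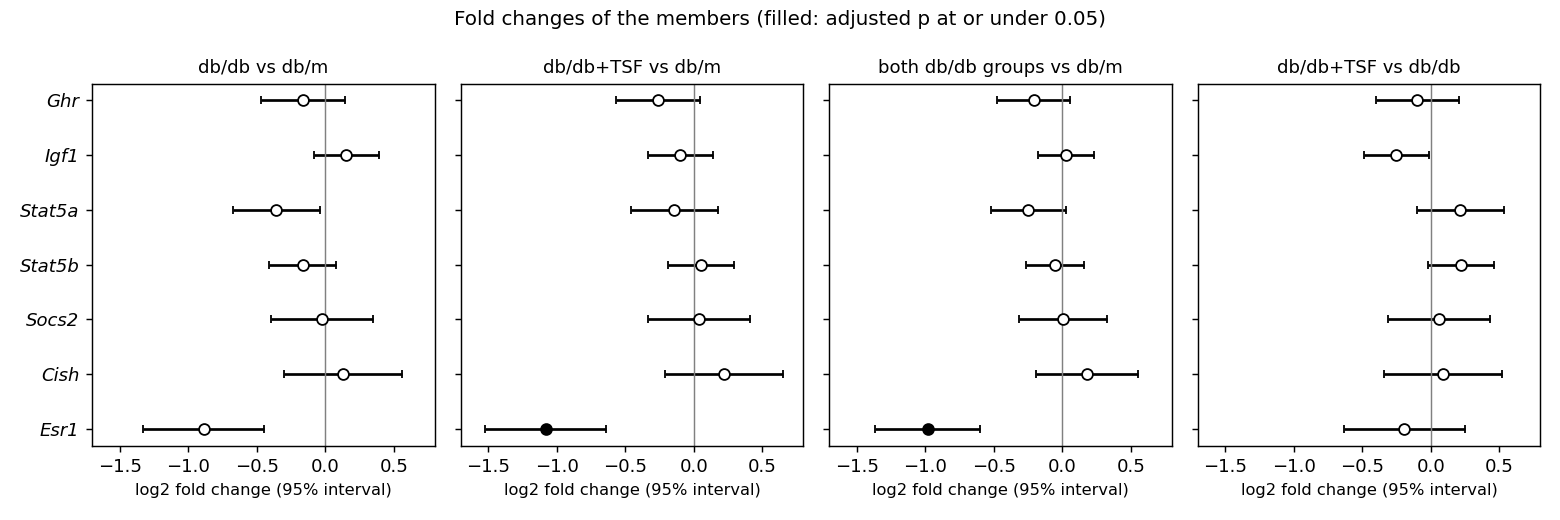
Log2 fold changes of the 7 measured members in 4 comparisons, with 95% intervals of the moderated fit that are not adjusted for the number of genes. Filled points passed an adjusted p of 0.05, which Esr1 did in db/db+TSF against db/m (-1.08) and in both db/db groups against db/m (-0.98).

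Other genes of the growth hormone and prolactin route did not pass. Of 6 genes tested among 8 ligands and releasing-axis genes, of 14 tested among 16 JAK kinases, STATs and adaptors, and of 16 SOCS, phosphatase and PIAS genes, 0 passed in any of the 4 comparisons. Over both diabetic groups against db/m their median fold changes were -0.04, -0.07 and 0.05, beside 0.004 over all genes. The genes of smallest p there were Ghrhr, the receptor for growth hormone releasing hormone (-0.25, adjusted p = 0.168), Stat4, a STAT of lymphocytes, and Pias4, a SUMO ligase that restrains STATs (-0.30, adjusted p = 0.093). Ghrhr averaged 3.65 in db/db+TSF, 3.37 in db/db and 3.76 in db/m, and Gh averaged 3.26, 3.12 and 2.96. Those levels lay near or below the median level of an array, which was 3.50 to 3.61. At such levels, not passing does not show that a gene was unchanged. Stat4 averaged 2.500 in db/db+TSF, 2.645 in db/db and 2.952 in db/m. It was kept by the filter of 2.649 only through db/m and is given no fold change, though it is counted in its list. Stat4 is reported beside the lymphocyte markers given above, and the part of those cells was not tested.

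Genes around IGF-1 likewise did not pass. Of 16 in the list 0 passed in any comparison, with a median of -0.01 over both diabetic groups. Pappa, a protease that frees IGF-1 from its binding proteins, had 5.72, 5.15 and 5.06 in db/db+TSF, 5.28, 5.74 and 5.78 in db/db, and 4.72, 4.92 and 4.90 in db/m. All 6 diabetic arrays were above the 3 db/m arrays, where 8.55% of all genes did not overlap. Pappa was picked as the gene of smallest p of its list, and its difference of 0.61 did not pass (adjusted p = 0.0662). Igfbp5, an IGF binding protein, had 9.32, 9.46 and 9.18 in db/db+TSF, 9.68, 9.78 and 9.90 in db/db, and 9.74, 9.72 and 9.62 in db/m. The db/db+TSF arrays were the lowest 3 of the 9. Of all genes, 20.1% did not overlap between db/db+TSF and db/db, and 22.1% between db/db+TSF and db/m. Neither the Igfbp5 difference from db/db (-0.46, adjusted p = 0.237) nor that from db/m (-0.37, adjusted p = 0.0798) passed.

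Of 11 tested genes among 13 that STAT5 is known to regulate in mammary gland, liver or blood cells, 0 passed in any comparison (median -0.04 over both diabetic groups). The smallest p was that of Pim1, a kinase induced by cytokines (-0.54, adjusted p = 0.104). Of 11 tested class I cytokine receptors, the family of Ghr and Prlr, 0 passed (median -0.02), with Il2rb of smallest p (-0.55, adjusted p = 0.0922). Lepr, the receptor mutated in these mice, is in that family. Its difference was -0.61 in db/db+TSF against db/db (adjusted p = 0.312), and the arrays of those groups overlapped. Lepr was dim, with means of 3.35 in db/db+TSF, 3.96 in db/db and 3.83 in db/m, near the median level of an array (3.50 to 3.61).

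**Figure D3:**
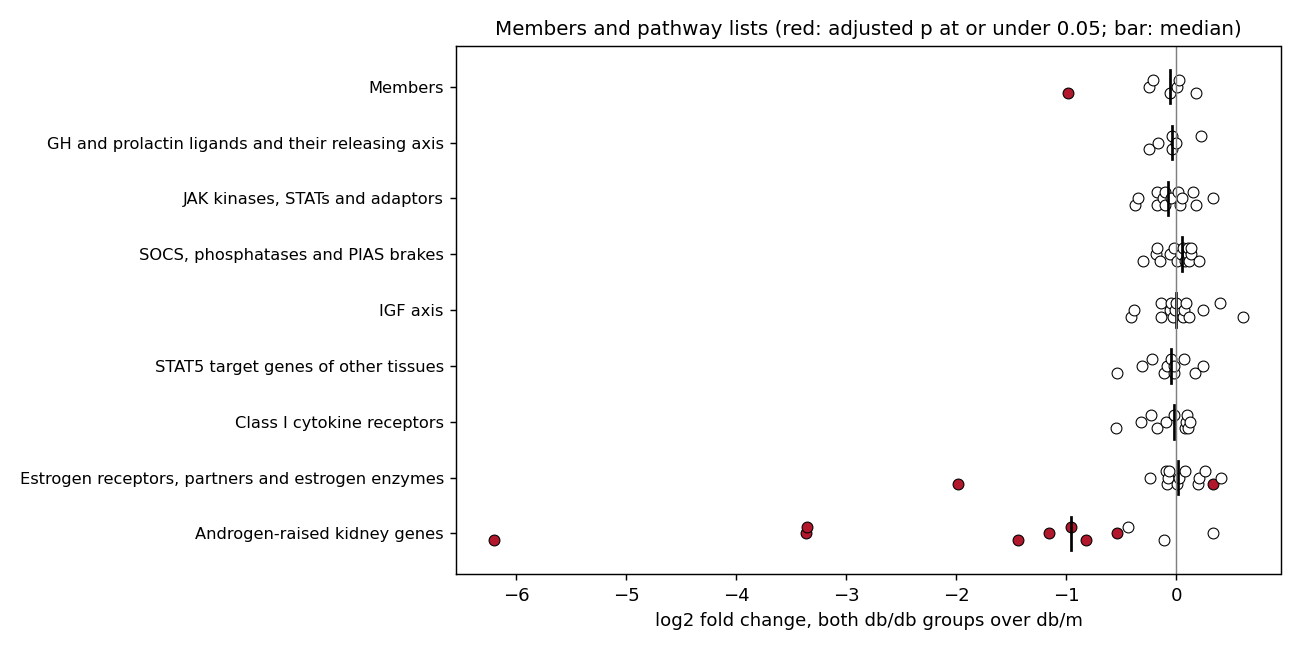
Log2 fold change of each tested gene of the members and of 8 pathway lists, both db/db groups over db/m. Each point is a gene, red points passed an adjusted p of 0.05, and bars give the median of a list. Stat4 and Slco1a1 are drawn although they were kept by the filter only through db/m. The lists of growth hormone, JAK-STAT, SOCS and IGF genes hold no red point, and the list around the estrogen receptor holds 2.

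Around estrogen, 2 of 14 tested genes passed over both diabetic groups against db/m, against 2.94% of all genes. Hsd17b2, the enzyme that turns estradiol into estrone and testosterone into androstenedione, fell, and Nrip1, a corepressor that binds estrogen receptors, rose. The list's median was 0.02, beside 0.004 over all genes. Esr2, the second estrogen receptor, did not pass (-0.08, adjusted p = 0.793), and all its levels lay between 3.95 and 4.45.

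Hsd17b2 had 6.13, 4.40 and 5.90 in db/db+TSF, 6.26, 6.06 and 6.24 in db/db, and 7.96, 7.59 and 7.90 in db/m. All 6 diabetic arrays were below all db/m arrays, where 8.55% of all genes did not overlap. Replicate 2 of db/db+TSF was far below the other 5, as it was lowest for Esr1. Hsd17b2 fell by 2.34 in db/db+TSF against db/m (SE 0.34, 5.08-fold, adjusted p = 0.00572). It fell by 1.99 over both diabetic groups (SE 0.30, 3.96-fold, adjusted p = 0.00605). In db/db alone against db/m the difference was -1.63 (SE 0.34, adjusted p = 0.0503) and did not pass. The adjusted p became 0.000178 without db/db+TSF replicate 2 at the same difference, and reached 0.152 with another array left out. Of 22 alternatives for that comparison 8 passed and 14 did not.

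The difference of Hsd17b2 between db/db+TSF and db/db was -0.71 (95% interval -1.47 to 0.04, adjusted p = 0.446), and it was -0.17 without db/db+TSF replicate 2.

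Nrip1 had 6.84, 6.88 and 6.73 in db/db+TSF, 6.78, 6.88 and 6.86 in db/db, and 6.54, 6.53 and 6.41 in db/m. All 6 diabetic arrays lay above all db/m arrays, where 8.55% of all genes did not overlap. It rose by 0.34 over both diabetic groups (SE 0.08, 1.26-fold, adjusted p = 0.0395), and passed in neither group alone (adjusted p = 0.0748 in db/db+TSF and 0.0936 in db/db). The call of Nrip1 was not kept in any of the 9 fits with 1 array left out, in which its adjusted p reached 0.103 without db/m replicate 3.

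**Figure D4:**
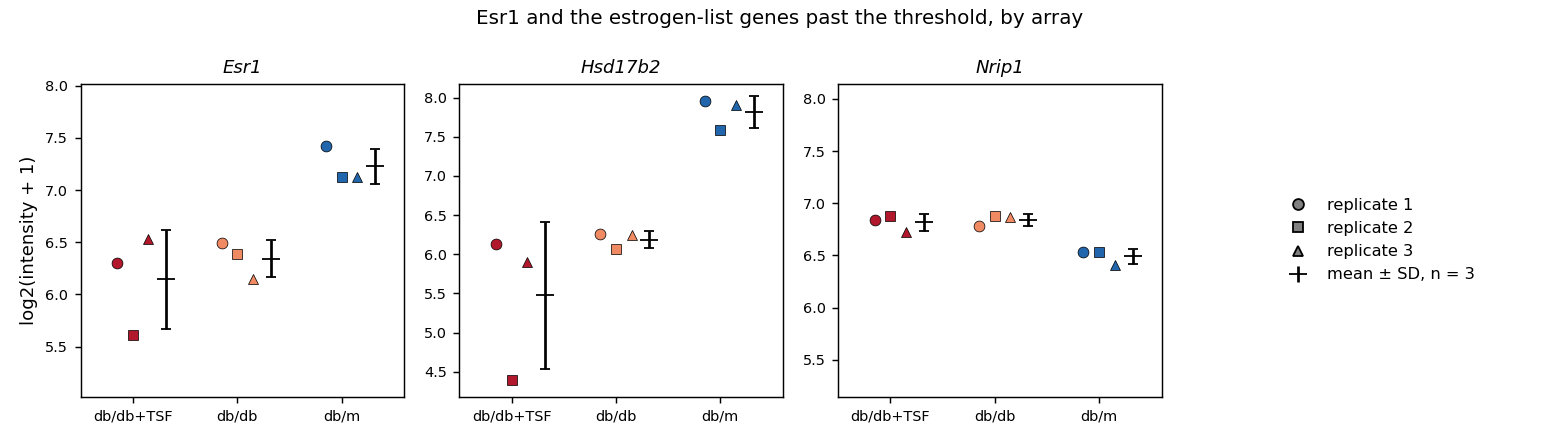
Level, log2(intensity + 1), of Esr1, Hsd17b2 and Nrip1 in each array of db/db+TSF, db/db and db/m, with mean ± SD of 3 arrays. Replicate 2 of db/db+TSF is the lowest array for Esr1 (5.62) and Hsd17b2 (4.40), and Nrip1 lies higher in all 6 diabetic arrays (6.73 to 6.88) than in db/m (6.41 to 6.54).

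Most of the listed genes that androgens raise in the male mouse kidney fell in diabetic cortex, as Esr1 did. Of 11 tested, 8 fell in db/db+TSF against db/m and 6 fell in db/db against db/m, with medians of -1.08 and -0.84. Of all genes 3.13% and 1.05% passed in those comparisons, in either direction. The list was chosen with earlier results of these data known, so its counts are a description. With 1 array left out, 7 to 8 of the calls in db/db+TSF and 4 to 6 of those in db/db were kept. Over both diabetic groups, Cyp7b1, a steroid hydroxylase, differed by -3.37, Slc22a28 by -1.44 and Cndp2, a dipeptidase, by -0.95. With Slco1a1, these were the genes of smallest p in the list. Kap differed by -1.16 and kept that call in 3 of 9 fits with 1 array left out. Odc1 (-0.44), Gusb (-0.11) and Slc7a12 (0.33) passed in no comparison. Slco1a1, an organic anion transporter, averaged 2.11 in db/db+TSF, 2.21 in db/db and 8.36 in db/m, passed the filter of 2.65 only through db/m, and is given no fold change. It is still counted in the calls and medians above and in the sum that follows. The summed intensity of the whole list was 3402 to 5924 in db/db+TSF, 5529 to 6358 in db/db and 10539 to 11141 in db/m, with no overlap between the diabetic arrays and db/m.

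The genes whose levels followed each member most closely over the 9 arrays were taken by Pearson r, which is given as a description since all genes share the arrays and the group difference. For Esr1 they were Akr1c14, a hydroxysteroid dehydrogenase (r = 0.98), Map3k7cl (0.97) and Pank1, which starts coenzyme A synthesis (0.97). With group means taken out, r was 0.96, 0.93 and 0.97 for these genes, which were picked for their high r. Those values include db/db+TSF replicate 2, the lowest Esr1 array of the study, and r was not computed without it. For Ghr they were C1qa, a complement gene of macrophages (0.95), Cers6, a ceramide synthase (0.95), and Gpm6a (0.94). For Cish the 3 were Ndrg3 (0.97), Dcakd (0.97) and Gatc (0.96), and for Stat5a Clpx, a mitochondrial protease subunit (0.98), Clptm1 (0.97) and Smim19 (0.97). Stat5b was closest to Cartpt (0.95), H2ac20 (0.94) and Neb (0.93), Igf1 to Ssbp4 (0.94), Socs6 (0.94) and Pstk (0.93), and Socs2 to Sstr2, a somatostatin receptor (0.88), Mmp25 (0.85) and Usp14 (0.85). No member was among the 3 closest genes of another. As those 3 were picked from all tested genes, their absence does not show whether the members vary together. With group means taken out, r between members ran from -0.61 (Ghr and Cish) to 0.89 (Cish and Stat5a). Cish and Stat5a were both highest in db/m replicate 3.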

How the data were processed

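The authors deposited linear intensity values, 1 for each probe set on each array. Affymetrix Expression Console and Transcriptome Analysis Console are named, per the submitters' processing notes, and their settings were not given in the sources used here. All deposited intensity values were above 1, and no detection calls were used. Precision is limited by the number of arrays.

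Of 41345 probe sets 23521 had 1 gene symbol in the platform annotation and 1814 had several, and only those with 1 were used. The brightest stood for its gene. Levels are log2(value + 1), which understates changes of dim genes. Genes whose mean level was below 2.65, percentile 30 of probe sets, were left out. limma 3.58.1 in R 4.3.3 fitted 1 mean per group to 9 arrays, with eBayes and Benjamini-Hochberg adjustment. All adjusted p-values are from limma. Exact permutation tests used scipy 1.17.1. The fit was also run on simulated data, drawn independently for each gene and array. Those data held no outlying array, so they cannot show how far calls depend on single arrays.

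The members, 8 pathway lists and 11 marker lists (160 of 167 entries with a probe set) were chosen with earlier results of these data known. All members are described, with list genes past the threshold (up to 4 per direction) or otherwise the one of smallest p, and the 3 genes of highest r per member. Pappa, Igfbp5, Lepr and Esr2 are named with values where they were of smallest p in a comparison or, for Esr2, after values were seen. Sequences and coordinates are RefSeq's (GRCm38.p6). Alternatives covered probe set choice, filter, scaling, variance model, weights, arrays fitted, pairing, pseudocount and threshold.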

Additional observations from a re-analysis of the deposited data

How the results depend on the processing

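The alternatives had 23 labels, in which the fit of each probe set counts as 2, brightest and dimmer. Over them, the 617 recomputed fold changes of the members included 0 reversals of a call, 2 lost calls and 5 gained ones. The lost and gained calls were all of Esr1 or Cish and are named with their arrays in the text except the one below. Signs changed in 26 values, none of which passed before or after. Of 1570 recomputed values of listed genes, 168 lost a call, 16 gained one, 8 moved by more than the spread and 0 reversed. In db/db against db/m, 0 members passed, and 1 (Esr1) with only the groups compared, at a threshold of 0.1, or without db/db replicate 3 and db/db+TSF replicate 2 together (adjusted p = 0.0343), a setting chosen after seeing the data. With 1 array left out, members past the threshold numbered 0 to 1 in db/db against db/m, 0 in db/db+TSF against db/db, and 0 to 2 in db/db+TSF and in both groups against db/m. Genes past the threshold numbered 187, 556 and 521 in db/db, db/db+TSF and both groups against db/m. At a threshold of 0.1 they numbered 442, 1012 and 953, with 1 array left out 72 to 194, 213 to 563 and 231 to 422, and without the 2 arrays 114 and 271 in db/db and db/db+TSF. In db/db+TSF against db/db limma called 0 genes with all arrays and with any array left out, and 2079 had an unadjusted p under 0.05. Deviations from group means correlated above 0.1 in 2 of 9 same-numbered pairs of arrays and in 2 of 18 others. The ranges were -0.08 to 0.15 and -0.16 to 0.16. With 3 arrays per group such correlations cannot tell whether the replicate numbers pair the arrays. With the replicate number as a block, the counts were 137, 0, 434 and 407 in db/db against db/m, db/db+TSF against db/db, db/db+TSF against db/m and both groups against db/m, the members past the threshold were 0, 0, 1 and 1, and Esr1 fell by 0.98 over both groups (adjusted p = 0.0155). The causes of these shifts were not tested. No detection calls were used, so signal over background was not assessed.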
